A study of Mus musculus with 4 samples.

Results

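Galectins are lectins that bind β-galactoside sugars, above all N-acetyllactosamine (LacNAc) on the glycans of surface glycoproteins, through a conserved carbohydrate-recognition domain. Prototype galectins (Lgals1, Lgals7) hold a single such domain, the chimera galectin (Lgals3) joins it to a flexible tail, and tandem-repeat galectins (Lgals4, Lgals8, Lgals9) link a pair of domains in a single chain. They are made in the cytosol, leave the cell without a signal peptide, and on T cells they crosslink receptors, set how receptors cluster and can trigger death of activated helper cells. The 6 galectin genes Lgals1, Lgals3, Lgals4, Lgals7, Lgals8 and Lgals9 were taken by name from the 19555 gene rows measured in every library of cultured mouse T cells. They were selected on a family name, with the RPKM values of all 4 libraries in view, so the contrasts of these genes are given as descriptions, with no p-value.

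Naive CD4+ T cells of C57BL/6 mice, sorted from lymph nodes and spleen, were activated and cultured for 3 days with IL-6 and TGF-β1, which together steer naive cells to the T helper 17 (Th17) state, and their total RNA was sequenced. All cultures received both cytokines. The cells were kept at 37 °C or at 39.5 °C, a temperature of fever, and carried the genotype label wild type (WT) or Smad4 KO. Smad4 carries the SMAD signal downstream of TGF-β receptors into transcription. Each of the 4 combinations had 1 library. The questions the design addresses are whether heat alters the transcripts of Th17 cells and whether that depends on Smad4. The sources used here do not give how Smad4 was deleted, in which cells, or whether animals were pooled.

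The unit of expression is RPKM, in which reads are divided by exon length and library size, which allows levels to be compared between genes. Whole reads recovered from these values summed to between 18034166 and 18460113 per library. A ratio between a pair of libraries carries a 95% interval that covers counting error only, since no group had a replicate. Smad4 itself was at 14.05 (37 °C) and 14.2 RPKM (39.5 °C) in WT and at 20.7 and 21.3 RPKM under the KO label. The targeted gene was thus higher, not lower, with that label, and a gene-wide value does not show whether single exons are missing. Every genotype direction below is that of the label. The T cell genes (7 of 7 listed) summed to between 1852 and 2070 RPKM. Trac and Trbc2 made up most of this sum, at 564 and 779 RPKM in WT at 37 °C. Cd3g was at 27.8 (37 °C) and 36.1 RPKM (39.5 °C) in WT and at 51.5 and 49.2 RPKM under the KO label. Cd3d, Lck, Cd4 and Trac were also higher under the KO label at both temperatures, whereas Cd3e and Trbc2 changed direction between them. Il17a, the cytokine gene that defines Th17 cells, was at 134, 686, 32.6 and 79.7 RPKM in WT at 37 °C, WT at 39.5 °C and the KO label at 37 and at 39.5 °C. In such bulk samples, fewer cells of a type and less RNA per cell cannot be told apart.

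The library order used below is WT at 37 °C, WT at 39.5 °C, KO label at 37 °C, KO label at 39.5 °C. The upstream sequences of the 3 galectin genes whose levels spanned at least 1 log2 unit over the libraries (Lgals3, Lgals7 and Lgals9) are shown because these genes carry the differences described below. RefSeq promoters on GRCm38.p6, 250 bases before to 50 after a gene's start, were found for 5 of the 6 galectins; Lgals1 was not among them. The bases of each window ahead of any exon annotated in GENCODE vM21 are printed, 5′ to 3′ on the gene's strand, at chr14:47373610-47373812 on the plus strand for Lgals3, chr7:28864136-28864228 on the plus strand for Lgals7 and chr11:78984947-78985174 on the minus strand for Lgals9. The Lgals3 and Lgals7 stretches lie within the annotated spans of these genes, in introns of transcripts that start farther upstream. Capitals mark matches to CAGAC (the core SMAD box) or to an interferon response motif (GAAA, any 2 bases, GAAA), each on either strand.
Lgals3: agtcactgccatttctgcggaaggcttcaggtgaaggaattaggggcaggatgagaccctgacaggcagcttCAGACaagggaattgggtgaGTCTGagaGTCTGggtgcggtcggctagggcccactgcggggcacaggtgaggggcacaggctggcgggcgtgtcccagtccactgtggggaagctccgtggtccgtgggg
Lgals7: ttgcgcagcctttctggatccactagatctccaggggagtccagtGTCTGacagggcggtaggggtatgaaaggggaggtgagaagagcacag
Lgals9: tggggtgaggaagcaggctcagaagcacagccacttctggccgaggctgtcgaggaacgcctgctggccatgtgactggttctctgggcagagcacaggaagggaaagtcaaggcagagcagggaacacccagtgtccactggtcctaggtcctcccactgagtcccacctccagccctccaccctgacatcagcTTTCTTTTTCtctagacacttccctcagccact

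Over the full 300 bases, the Lgals3 promoter held 3 matches to CAGAC, that of Lgals7 held 2, that of Lgals4 held 1, and those of Lgals8 and Lgals9 held 0. A match to CAGAC was found in 49.6% of the 32851 promoters of this length, so holding it sets no gene apart. The interferon response motif was matched 2 times in the Lgals9 promoter and in 0 of the other 4 galectin promoters, against 3.44% of all promoters. The heat shock element GAANNTTC or TTCNNGAA (15.1% of all promoters) and the AP-1 site TGANTCA (7.81%) were matched in 0 of the 5 galectin promoters. A match describes these letters and is not evidence of a bound factor.

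The 6 genes differed widely in level. Lgals1 had the highest RPKM in each of the 4 libraries and made up between 83.9% and 92.0% of the summed galectin RPKM. Lgals3 and Lgals9 formed the next tier, Lgals7 ran from a low level in WT to their tier in the libraries labelled Smad4 KO, and Lgals8 and, below it, Lgals4 were the lowest in every library. In WT at 37 °C the counting intervals of Lgals7, Lgals8 and Lgals4 overlapped from neighbour to neighbour, as did those of Lgals8 and Lgals4 in WT at 39.5 °C; each other pair of neighbours in the order was apart by more than counting error. All 6 genes reached a mean of 1 RPKM over the libraries, Lgals4 narrowly with a mean of 1.01.

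**Figure D1:**
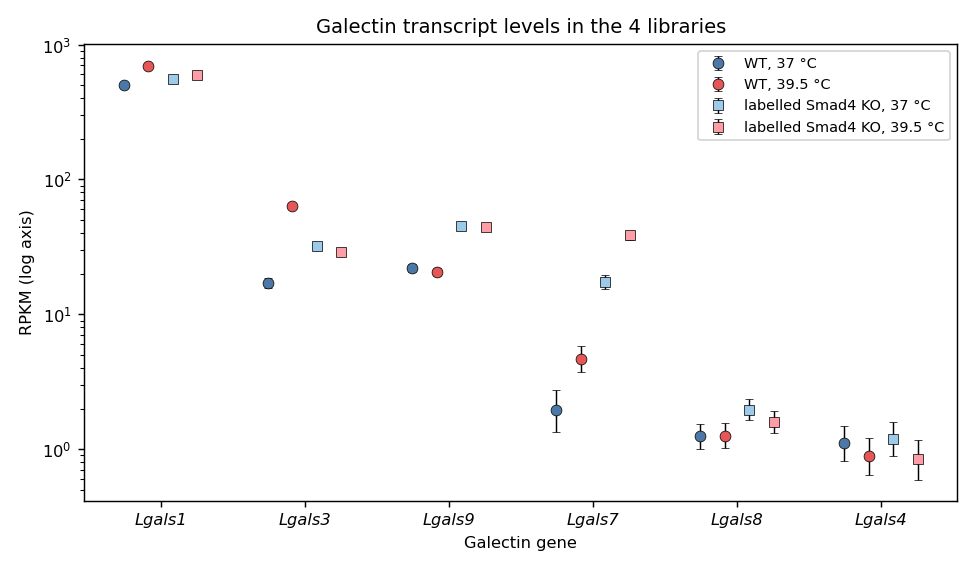
RPKM (log axis) of the 6 galectin genes in each of the 4 libraries; points are single libraries and bars are 95% counting intervals. Lgals1 lies between 503 and 695 RPKM, while Lgals7 runs from 1.95 RPKM in WT at 37 °C to 38.6 RPKM under the KO label at 39.5 °C.

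Lgals1 (chromosome 15, 78926725 to 78930465, plus strand, GRCm38) encodes the prototype galectin best known for triggering death of activated Th1 and Th17 cells. It stood at 503 RPKM (8269 reads) in WT at 37 °C, 695 RPKM (12124 reads) in WT at 39.5 °C, and 556 and 592 RPKM (8851 and 9849 reads) under the KO label at 37 and 39.5 °C. WT at 39.5 °C was the highest and WT at 37 °C the lowest. The ratio of 39.5 to 37 °C was 1.383 (1.345 to 1.423) in WT and 1.07 (1.04 to 1.10) under the KO label. Against WT, the library labelled Smad4 KO was at a ratio of 1.11 (1.07 to 1.14) at 37 °C and 0.852 (0.830 to 0.875) at 39.5 °C, and the genotype difference thus pointed in opposite directions at the 2 temperatures. All 4 ratios lay within 1.5-fold of 1. Scaling to total reads moved each of them beyond its counting interval, without a change of direction.

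Lgals7 (chromosome 7, 28863853 to 28866284, plus strand) encodes the other prototype galectin, known from stratified epithelia and as a gene induced by p53. Its levels were 1.95 RPKM (33 reads) in WT at 37 °C, 4.69 RPKM (84 reads) in WT at 39.5 °C, 17.5 RPKM (286 reads) under the KO label at 37 °C and 38.6 RPKM (658 reads) at 39.5 °C. Both libraries labelled Smad4 KO lay above both WT libraries, and within each genotype 39.5 °C lay above 37 °C. The ratio of the KO label to WT was 8.95 (6.23 to 13.3) at 37 °C and 8.22 (6.54 to 10.4) at 39.5 °C, the largest genotype ratios among the 6 genes. The ratio of 39.5 to 37 °C was 2.40 (1.59 to 3.71) in WT and 2.20 (1.92 to 2.54) under the KO label. The log2 temperature ratio under the KO label minus that in WT was −0.12 (−0.79 to 0.51), an interval that includes 0 and also differences of more than 1.5-fold in the downward direction; as ratios of RPKM + 1 the difference was 0.15, of the opposite sign.

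Because Lgals7 is a gene of epithelia, markers of other cells were set beside it. Of the epithelial markers 4 of 7 were listed and summed to 1.28, 1.94, 5.18 and 3.27 RPKM in the library order above; Krt5 and Krt14, the keratins of the basal epidermis, were not listed. Epcam was at 0.969, 0.838, 2.42 and 1.22 RPKM. The keratin gene Krt18 had 1, 17, 29 and 29 reads and the cadherin gene Cdh17 had 6, 17, 116 and 78 reads, both higher under the KO label at each temperature. Krt8 had 7, 11, 5 and 0 reads. The sums were higher under the KO label, as Lgals7 was, but at 39.5 °C they were lower there than at 37 °C. Their part in the Lgals7 result was not tested. Stromal markers (4 of 4 listed) summed to between 0.445 and 0.874 RPKM.

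Lgals3 (chromosome 14, 47367751 to 47386160, plus strand) encodes the chimera galectin, long used under the name Mac-2 as a macrophage marker and expressed by activated T cells, where it binds branched N-glycans and restrains receptor clustering. It stood at 17.1 RPKM (579 reads) in WT at 37 °C, 63.8 RPKM (2289 reads) in WT at 39.5 °C, and 32.1 and 28.8 RPKM (1052 and 985 reads) under the KO label at 37 and 39.5 °C. The WT libraries were its lowest and its highest value, and both libraries labelled Smad4 KO lay between them. In WT the ratio of 39.5 to 37 °C was 3.73 (3.40 to 4.09), the largest temperature ratio of the family. Under the KO label it was 0.897 (0.822 to 0.979), and with libraries scaled to total reads 0.936 (0.857 to 1.02), an interval that includes 1.

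The genotype difference of Lgals3 therefore changed sign with temperature. The ratio of the KO label to WT was 1.88 (1.69 to 2.08) at 37 °C and 0.451 (0.418 to 0.487) at 39.5 °C. The log2 temperature ratio under the KO label minus that in WT was −2.06 (−2.24 to −1.87). No replicate stands behind this difference.

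Myeloid cells are rich in Lgals3, so their markers are given as well. Of 7 myeloid markers 5 were listed, and they summed to 2.96, 6.30, 4.41 and 8.53 RPKM in the library order above; Itgam and Adgre1 were not listed. The lysosomal gene Cd68 made up most of this, at 1.70, 4.57, 3.61 and 8.17 RPKM. Lyz2, which encodes lysozyme, was at 1.001, 1.22, 0.345 and 0.0413 RPKM, Csf1r reached at most 0.127 RPKM, and Cd14 had 0 reads in WT at 37 °C, where a count of 0 allows up to 3 reads (one-sided 95% limit). Cd68 was higher at 39.5 °C in both genotypes, whereas Lgals3 was higher at 39.5 °C in WT and lower under the KO label. Lyz2 (24, 31, 8 and 1 reads) and Csf1r (6, 12, 7 and 5 reads) had the same temperature directions as Lgals3, at few reads. Fcgr3 (6, 6, 5 and 2 reads) had a lower RPKM at 39.5 °C in both genotypes, and Cd14 had at most 1 read. Cd68 rose with the KO label in the limma fit described below (log2 0.74, adjusted p = 0.0275). Its call was lost when rows of any level were tested, where 0 of 19555 rows passed. Lyz2, lower with the KO label at both temperatures, had a mean below 1 RPKM and was not in the fit. The part of these cells in the Lgals3 values was not tested. Of the remaining markers, Cd8b1 was between 2.86 and 4.01 RPKM, and B cell markers (2 of 5 listed) summed to 14.4, 4.61, 8.998 and 3.85 RPKM. Nearly all of the B cell sum was Ighm, at 14.3, 4.39, 8.69 and 3.37 RPKM. The other listed B cell marker, Cd79a, went the other way with temperature, with 4, 6, 8 and 13 reads. Dendritic cell markers (1 of 3 listed) reached at most 0.0863 RPKM, and 0 of 2 natural killer cell markers were listed.

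**Figure D2:**
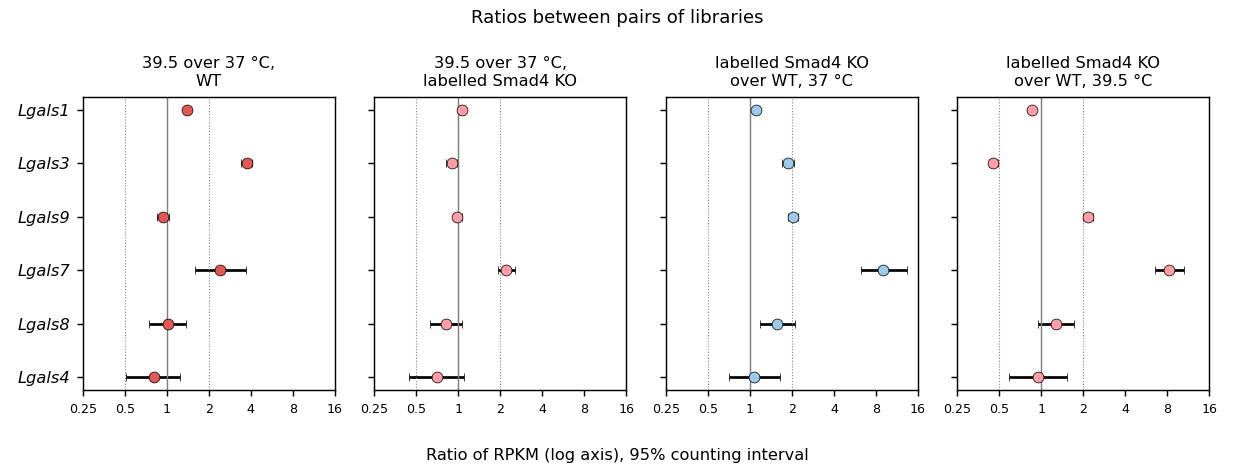
Ratio of RPKM (log axis) for each galectin gene in the 4 comparisons between pairs of libraries, with 95% counting intervals; the solid line marks 1 and the dotted lines mark 2-fold in each direction. Lgals7 lies at 8.95 and 8.22 under the KO label, Lgals9 at 2.04 and 2.15, and Lgals3 moves from 1.88 at 37 °C to 0.451 at 39.5 °C.

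Lgals9 (chromosome 11, 78962974 to 78984946, minus strand) encodes the tandem-repeat galectin known as a ligand of the inhibitory receptor TIM-3 and as an interferon-responsive gene. It stood at 22.0 and 20.6 RPKM (858 and 849 reads) in WT at 37 and 39.5 °C and at 44.9 and 44.2 RPKM (1693 and 1739 reads) under the KO label. Both libraries with the KO label lay above both WT libraries, and temperature hardly separated the values. The ratio of the KO label to WT was 2.04 (1.88 to 2.21) at 37 °C and 2.15 (1.98 to 2.33) at 39.5 °C. The ratio of 39.5 to 37 °C was 0.934 (0.848 to 1.03) in WT and 0.984 (0.920 to 1.05) under the KO label, and both intervals include 1. The TIM-3 gene Havcr2 was not listed.

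Lgals8 (chromosome 13, 12439415 to 12464944, minus strand) encodes a tandem-repeat galectin that marks damaged endosomes for autophagy. It was low throughout, at 1.25 and 1.26 RPKM (84 and 90 reads) in WT at 37 and 39.5 °C and at 1.97 and 1.61 RPKM (128 and 109 reads) under the KO label. The ratio of the KO label to WT was 1.57 (1.19 to 2.098) at 37 °C and 1.27 (0.952 to 1.70) at 39.5 °C, the latter within counting error. The temperature ratios were 1.01 (0.742 to 1.38) in WT and 0.816 (0.626 to 1.06) under the KO label. Its exons share 155 bases (4.20% of their length) with Heatr1 on the other strand. The sources used here do not give strandedness, so some reads could belong to either gene. Heatr1 was at 45.8, 35.2, 26.3 and 28.1 RPKM in the library order above, lower under the KO label where Lgals8 was higher. Gene-wide values do not show how many reads fell in the shared bases, and their part in the Lgals8 values was not tested.

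Lgals4 (chromosome 7, 28833854 to 28841708, plus strand) encodes a tandem-repeat galectin best known from gut epithelium. It was the lowest of the family in each library, at 1.11 and 0.895 RPKM (47 and 40 reads) in WT and 1.20 and 0.845 RPKM (49 and 36 reads) under the KO label. All of its 4 ratios, from 0.704 (0.445 to 1.10) for temperature under the KO label to 1.08 (0.707 to 1.64) for genotype at 37 °C, had intervals that include 1. Each of these intervals also includes a 1.5-fold change in at least 1 direction. Those for temperature (0.513 to 1.25 in WT, 0.445 to 1.10 under the KO label) reach that far only downward. For genotype, the interval at 37 °C reaches that far only upward, and that at 39.5 °C (0.585 to 1.52) in both directions.

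The log2 temperature ratio under the KO label minus that in WT was also taken for the other 4 galectins. For Lgals1 it was −0.38 (−0.43 to −0.32), an interval clear of 0. It was −0.31 (−0.90 to 0.28) for Lgals8, −0.19 (−1.12 to 0.74) for Lgals4 and 0.08 (−0.09 to 0.25) for Lgals9, and these 3 intervals include 0. Counting error alone thus allows little difference for Lgals9 and leaves a wide range for Lgals4 and Lgals8.

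Set beside all genes, the family's counts were as follows, as ratios of RPKM + 1, which shrink the change of genes of low level, among the 13715 rows whose mean reached 1 RPKM. At 39.5 °C in WT, 1 of the 6 galectins (Lgals3) was at least 2-fold higher and 0 of 6 lower, against 1.46% and 0.525% of all rows; Lgals7 was just short of it at a log2 of 0.95. At 39.5 °C under the KO label, 1 of 6 (Lgals7) was higher and 0 of 6 lower by this measure, against 0.751% and 0.911%. For the KO label against WT at 37 °C, 1 of 6 (Lgals7) was at least 2-fold higher and 0 of 6 lower, against 4.7% and 1.14%; Lgals9, at a log2 of 0.99, was just short of the threshold. For the KO label against WT at 39.5 °C, 2 of 6 (Lgals7 and Lgals9) were at least 2-fold higher, against 2.3%, and 1 of 6 (Lgals3) was at least 2-fold lower, against 1.05%. The temperature responses of the genotypes differed by at least 2-fold for 1 of 6 (Lgals3, smaller under the KO label), against 1.55% of all rows smaller and 0.671% larger. The median log2 ratios of the family were 0.24 and −0.09 for temperature in WT and under the KO label and 0.63 and 0.08 for genotype at 37 and 39.5 °C, beside medians over all rows of −0.02, −0.01, −0.01 and 0.00. These genes were chosen with their values known, so nothing is read from the shares.

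**Figure D3:**
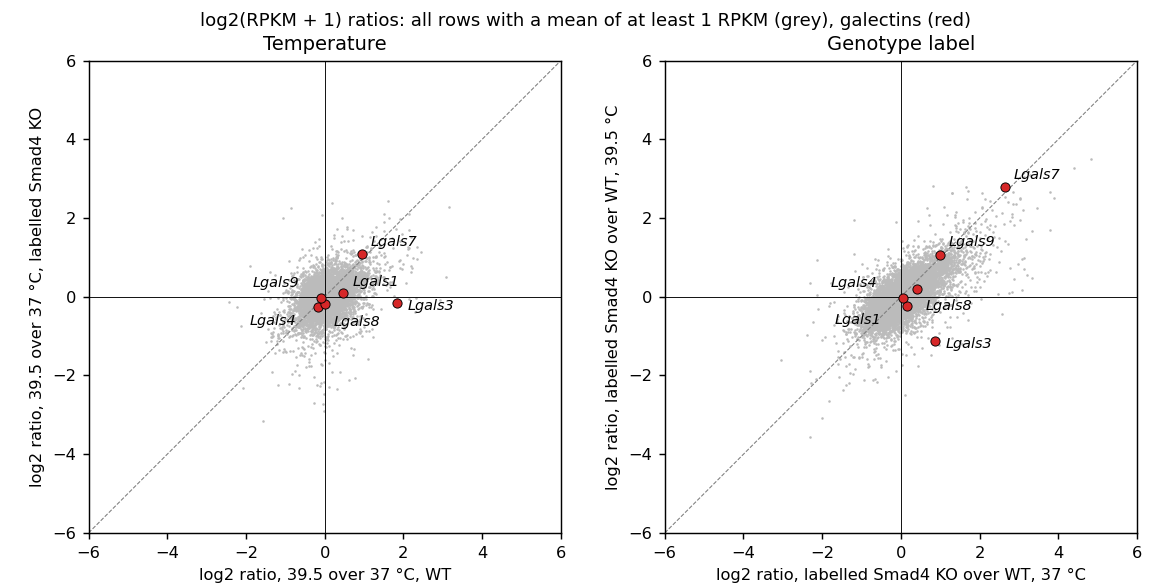
log2(RPKM + 1) ratios of 13715 rows (grey) and the 6 galectins (red): temperature in WT against temperature under the KO label (left), and genotype at 37 °C against genotype at 39.5 °C (right); the dashed line marks equal ratios. Lgals7 and Lgals9 lie near the dashed line in both panels, whereas Lgals3 lies at 1.84 and −0.15 on the left and at 0.87 and −1.12 on the right.

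For the 3 galectins that spanned at least 1 log2 unit, the genes with the most similar pattern were found by the Euclidean distance between mean-centred log2(RPKM + 1) values over the 4 libraries. Nearest to Lgals7 were Batf3 (distance 0.53), Asb2 (0.69) and Fam71b (0.70). Batf3, a basic leucine zipper transcription factor gene, was at 0.309, 2.79, 8.24 and 15.3 RPKM in the library order above. Asb2, which encodes a substrate subunit of a ubiquitin ligase, was at 0.961, 1.67, 13.2 and 16.01 RPKM. Nearest to Lgals9 were Map2k6 (0.05), Abca7 (0.08) and Dennd1c (0.09). Map2k6 was at 0.701, 0.602, 2.40 and 2.22 RPKM, a low level at which the added 1 RPKM shrinks its ratios more than those of Lgals9. Abca7, a lipid transporter gene, was at 6.33, 5.65, 13.997 and 12.8 RPKM. Nearest to Lgals3 were Mir6972 (0.18) and Traj53 (0.22), short rows with at most 7 and 9 reads in any library, and Smim3 (0.36), at 5.23, 18.7, 7.20 and 8.71 RPKM.

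Other galectin-related genes were read next to the family. Lgals3bp encodes a secreted glycoprotein that binds galectins and, like Lgals9, is known to respond to interferon. It was at 23.5 (37 °C) and 38.6 RPKM (39.5 °C) in WT and at 89.9 and 144 RPKM under the KO label, so both KO-labelled values were above both WT values. In an additive limma fit of genotype and temperature over all 13715 rows it rose with the KO label (log2 1.88 ± 0.12 SE, adjusted p = 0.0062), a call lost when rows of any level were tested (adjusted p = 0.0546). Its change with temperature was 0.69 ± 0.12 (adjusted p = 0.126). The galectin-like gene Lgalsl was at 3.63, 3.74, 3.43 and 2.73 RPKM, and Grifin, a lens galectin relative, had at most 5 reads in any library. Lgals2, Lgals6 and Lgals12 were not listed.

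What galectins bind depends on the enzymes that build and cap LacNAc, and 4 lists of glycan and partner genes were tested in the same limma fit. Of their 53 genes 51 were listed and 43 reached a mean of 1 RPKM. With the KO label 5 rose and 2 fell, against 8.57% of all rows rising and 4.7% falling. With temperature 0 of 43 passed, beside 2 of all 13715 rows rising (0.0146%) and 1 falling (0.00729%). At an unadjusted p under 0.05 there were 9 of the 43, beside 1914 of the 13715 rows. Limma-voom on the recovered reads also called 0 of the 43 for temperature. The fit has 1 residual degree of freedom per gene, the interaction of genotype and temperature. All 7 genotype calls were lost without a minimum mean, where 0 of 19555 rows passed and 5396 had an unadjusted p under 0.05.

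Genes that cap galectin ligands gave 3 of the 7 genotype calls. St6gal1, whose sialyltransferase masks LacNAc from Lgals1 protein, was at 11.0 (37 °C) and 11.1 RPKM (39.5 °C) in WT and at 52.9 and 25.7 RPKM under the KO label. It rose with the KO label (limma log2 1.65 ± 0.25 SE, adjusted p = 0.0211). Of the 14 genes for sialic acid and fucose capping, 13 were tested and 3 rose with the KO label, against 8.57% of all rows. Besides St6gal1 these were the fucosyltransferase genes Fut7 and Fut4. Fut7 was at 8.18, 12.1, 19.2 and 19.2 RPKM (limma log2 0.88, adjusted p = 0.0314). Fut4 was at 2.63, 1.56, 4.33 and 2.91 RPKM (limma log2 0.58, adjusted p = 0.0496). Across the 13 tested genes the median log2 change was 0.29, beside −0.01 for all rows.

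Genes that build the ligands were counted in the same way. Of the 18 genes for N-glycan branching and LacNAc synthesis, 14 were tested and 0 passed for genotype, against 8.57% of all rows rising and 4.7% falling. Limma-voom also called 0. At an unadjusted limma p under 0.05 there was 1 of the 14, beside 4748 of the 13715 rows. Mgat5, whose product adds the branch that Lgals3 protein favours, was at 3.68, 4.32, 2.60 and 4.25 RPKM (limma genotype log2 −0.20 ± 0.15 SE, adjusted p = 0.394). Of the 6 O-glycan genes, 3 were tested and 1 rose with the KO label, against 8.57% of all rows. It was B3gnt3, which extends core O-glycans, at 5.50, 2.75, 10.9 and 7.15 RPKM (limma log2 0.996, adjusted p = 0.0174). Gcnt1, the core branching enzyme gene that creates Lgals1 ligands on T cells, was below the minimum, at 0.286, 0.641, 0.173 and 0.0487 RPKM.

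Among the 15 counter-receptors and binding partners 13 were tested, 1 rose and 2 fell with the KO label, against 8.57% and 4.7% of all rows. The adhesion receptor gene Cd2 rose (158, 161, 445 and 264 RPKM; limma log2 1.10, adjusted p = 0.0288). The early activation antigen gene Cd69 fell (13.1, 9.12, 6.64 and 4.93 RPKM; −0.83, adjusted p = 0.021), as did the integrin gene Itgb1 (41.2, 53.5, 28.9 and 34.1 RPKM; −0.57, adjusted p = 0.0418), whose call was lost without a variance trend (adjusted p = 0.0505). Cd44, a hyaluronan receptor that Lgals9 protein binds, was at 32.3, 49.4, 26.9 and 24.8 RPKM (limma log2 −0.61 ± 0.19 SE, adjusted p = 0.090); it passed with a minimum mean of 5 RPKM and with limma-voom. Ptprc, the gene of the phosphatase CD45, was at 15.0, 14.6, 11.7 and 11.9 RPKM (adjusted p = 0.149), and Lag3, an inhibitory receptor gene, was at 96.1, 188, 97.9 and 136 RPKM (adjusted p = 0.357 for genotype and 0.156 for temperature in limma).

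**Figure D4:**
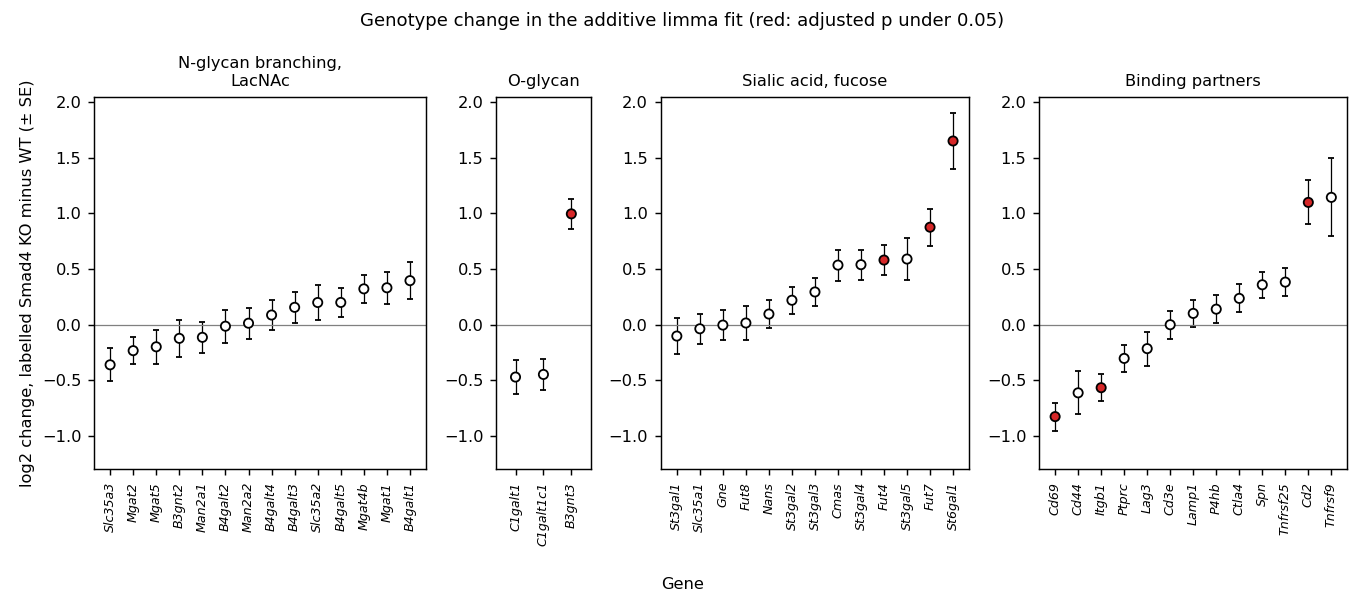
log2 change with the KO label (± SE) in the additive limma fit for the 43 tested genes of the 4 lists; red points passed an adjusted p of 0.05. St6gal1 has the largest rise, at 1.65, and Cd69 the largest fall, at −0.83.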

How the data were processed

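The authors deposited 1 table of RPKM per library, with 19555 rows in the same order. The submitters' processing notes name edgeR, Subread, featureCounts, Bowtie2 and Trim Galore 0.4.4, with mm10 as the build. The sources used here do not give settings, strandedness or the annotation release. Bowtie2 does not split a read at an intron, so junction reads may be missing from every library. The values of all galectin genes were whole reads at GENCODE vM21 exon lengths within 0.01 reads; of the 13144 rows with a name used once there, 12061 were whole within 0.02 reads, 7490 rows fitted a length of their own, and 4 could not be recovered. Of 2000 rows in simulated data, 98% were recovered. The RPKM denominators were 1.01 (37 °C) and 1.06 (39.5 °C) times the recovered reads in WT and 0.956 and 0.997 times under the Smad4 KO label, so these values carry a scaling other than total reads.

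Ratios were computed from RPKM, each given a 95% interval by the exact Clopper-Pearson method on the share of the pair's reads, and the difference of temperature responses with an exact conditional odds ratio interval; the labels name no molecular identifiers, so PCR copies may count as separate reads and the intervals cover counting error only. For the glycan and partner lists, limma 3.58.1 (R 4.3.3) was run on log2(RPKM + 1), as an additive model of genotype and temperature with a variance trend and Benjamini-Hochberg adjusted p-values over all rows whose mean reached 1 RPKM. The labels do not tell whether animals or culture dates were separate. The p-values rest on each gene's interaction residual and on a variance prior shared over genes (median 4.47 prior degrees of freedom). They measure no spread between replicates of a condition. On counts simulated for 13608 rows, the genotype fit recovered 200 of 200 4-fold changes and made 35 false calls. Those counts held no temperature effect and no interaction, so this recovery says nothing about the calls made on the real libraries. The members, lists, rule for named genes and alternatives were chosen with earlier results of these data known. Named were all galectins, related genes, list members that passed (up to 6 a list), Mgat5, St6gal1, Gcnt1, Havcr2, Cd44, Ptprc and Lag3, and the 3 rows nearest in pattern to each galectin spanning at least 1 log2 unit. Alternatives were a pseudocount of 0.1, no minimum mean or one of 5 RPKM, upper quartile scaling, scaling to total reads, no variance trend and, added after seeing the data, limma-voom.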

Additional observations from a re-analysis of the deposited data

Results flagged for a closer look

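Lgals3 differed with temperature in opposite directions under the 2 genotype labels (ratios of 3.73 and 0.897), and with genotype in opposite directions at the 2 temperatures (1.88 and 0.451), each with a counting interval clear of 1 at the deposited scaling; the log2 difference was −2.06, and with 1 library per group it was not tested. Lgals1 differed with genotype in opposite directions at 37 and 39.5 °C (1.11 and 0.852), a log2 difference of −0.38, also not tested.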

How the results depend on the processing

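No paired analysis was possible because each group had 1 library and the labels carry no replicate numbers; for the same reason no library could be left out. Over the 24 galectin ratios, 8 were at least 2-fold, with 8 under upper quartile scaling, 7 under scaling to total reads and 6 as ratios of RPKM + 1; the difference of temperature responses was at least 2-fold for 1 galectin under all 4 settings. Scaling to total reads turned the Lgals9 temperature ratio under the KO label from 0.984 to 1.03, both within counting error. The same scaling moved all Lgals1 ratios beyond their counting intervals. Those for temperature became 1.45 in WT and 1.11 under the KO label, and those for genotype 1.05 at 37 °C and 0.803 at 39.5 °C. For Lgals3bp, the temperature ratio under the KO label went from 1.60 to 1.67, and the genotype ratio at 39.5 °C from 3.74 to 3.52. As ratios of RPKM + 1, the Lgals7 difference of temperature responses went from −0.12 to 0.15. The number of rows past 2-fold was 272 and 228 for temperature in WT and under the KO label and 801 and 459 for genotype at 37 and 39.5 °C; with a pseudocount of 0.1 it was 556, 458, 1220 and 866, and with a minimum mean of 5 RPKM 144, 104, 512 and 273. In limma, 1820 rows passed for genotype, against 0 without a minimum mean and 2886 with limma-voom. For temperature 3 passed, against 30 with a pseudocount of 0.1, 0 without a minimum mean, 290 with a minimum of 5 RPKM, 87 with upper quartile scaling, 0 without a variance trend and 344 with limma-voom. The cause was not tested. With a minimum mean of 5 RPKM, 30 genes of the 4 lists were tested, 7 rose and 3 fell with the KO label (Cd44 among the latter), and Lag3 rose with temperature; limma-voom called 8 rising and 4 falling (Cd44 again) with the KO label among 43. Depth limits Lgals4 and Lgals8, with at most 49 and 128 reads in a library.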
